A study of Mus with 438 samples.

Results

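The 6 genes described here encode subunits of phosphodiesterase 6 (Pde6c, Pde6h and Pde6b) and of the cyclic nucleotide-gated (CNG) channel (Cnga3, Cngb3 and Cngb1), the last steps of the light response. They were chosen for this function among the 10390 genes of a single-cell RNA table of mouse cones and rods. Pde6b was also chosen for a strong binding region of the thyroid hormone receptor in it, so that region is described and not tested. All 6 genes were measured, and all 6 passed the filter of a mean of at least 5 CPM (reads of the gene scaled to the depth of the library) over the groups.

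In darkness cyclic GMP keeps CNG channels of the outer segment open. Light activates the visual pigment and its G protein transducin, transducin relieves phosphodiesterase 6 of its inhibitory subunit, the enzyme breaks down cyclic GMP, and the channels close. Cones and rods build both complexes from largely different genes. In cones Pde6c encodes the catalytic subunit of the enzyme and Pde6h the inhibitory subunit, while Cnga3 encodes the channel subunit that forms the pore and Cngb3 its modulatory partner. In rods the catalytic subunits come from Pde6a and Pde6b, the inhibitory subunit from Pde6g, and the channel from Cnga1 and Cngb1. Loss of the cone genes is known to cause achromatopsia, and loss of Pde6b a rapid loss of rods.

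Single cells were picked by their fluorescence from the superior or inferior retina of C57BL/6 mice. Control cones carried the Trb2Cre driver, an allele of the receptor gene Thrb, in heterozygous form with the Ai6 reporter (Trb2Cre-het:Ai6). Superior cells numbered 26 on postnatal day 2 (P2), 24 each on P8 and P21, 26 on P60 and 53 at the age labelled 2 months (2m). The inferior cells of these 5 collections numbered 30, 24, 24, 21 and 50. Knockout cones (Trb2Cre-KO:Ai6, 50 superior and 48 inferior) were of the 2m age. The same 2m age gave 29 rods of the tgNrl:gfp line, a different line in which the promoter of the rod gene Nrl drives the green protein. Control cones thus share the driver allele with the knockout and are not wild type. The labels name no animal. Each group of cells was therefore 1 sample, no error was computed from cells, and each share of cells is followed by its exact 95% interval (Clopper-Pearson), for counting error alone. Region lists came from E18 retina pulled down with streptavidin (chromatin affinity purification, ChAP; 2 samples with a tagged receptor, ThrbHAB:BirA, and 2 with BirA alone) and from open chromatin of purified P30 cone nuclei with a Sun1-gfp tag (ATAC-seq; 2 Trb2Cre-het and 2 knockout samples).

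The 2m groups were sequenced more deeply than the others, with median reads per cell between 1.09e+07 and 1.83e+07 against 1.74e+06 to 3.25e+06 from P2 to P60, so a level of 10 CPM was about 9 reads or more in each cell. Thrb, the targeted gene, averaged 43.2 CPM in the superior knockout group against 213 CPM in 2m controls, and 33.9 against 170 CPM in the inferior groups. The 12 measured cone markers, with Pde6c, Pde6h, Cnga3 and Cngb3 among them, summed to a mean of at least 13478 CPM in each cone group and to 103 CPM in rods. In 2 cells, cell 4 of P2 superior controls and cell 35 of superior knockout cones, they summed to 35.1 and 508 CPM, against at least 3609 CPM in every other cone. These 2 cells held 1.95 and 7.38 CPM of Pde6c, and leaving them out moved the mean of Pde6c from 280 to 291 CPM in P2 superior and from 1941 to 1980 CPM in superior knockout cones. No result of the 6 genes changed its direction or its side of a threshold without them. Gnat1, the alpha subunit of rod transducin, was at or above 100 CPM in 0 of 56 P2, 24 of 48 P8, 8 of 48 P21, 9 of 47 P60 and 34 of 103 2m control cones, and in 13 of 98 knockout cones. For Pde6b and Cngb1, the P8 means, the tests and the knockout over 2m controls are given with and without these cells. So is Pde6b in the knockout against P60 controls. Other values of the 6 genes include them.

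Pde6c, the catalytic subunit of cones (gene ID 110855), was low at P2 and stood higher in every other control collection. In P2 superior cones it ran from 0.291 to 704 CPM with a median of 260 CPM, and in P2 inferior cones from 0.445 to 1305 CPM with a median of 398 CPM. From P2 through P8 and P21 to P60 the superior means were 280, 1236, 1685 and 2281 CPM and the inferior means 421, 1439, 1887 and 2206 CPM. In 2m controls they were 3164 and 3760 CPM, with cells from 13.8 to 6572 CPM (median 3072) and from 15.8 to 8432 CPM (median 3593). From P2 to P60 the order of the means followed age in both zones. The 2m controls, of nearly the same age as P60 but sequenced more deeply, stood higher still, a difference between collections. At P2, 46 of 56 control cones held at least 10 CPM (82.1%, 69.6 to 91.1), and each of the 48 P8, 48 P21, 47 P60 and 103 2m control cones did. The 3 late collections (P21, P60 and 2m) did not overlap with the 2 early ones (P2 and P8), a separation that was not counted over all genes. The late minus early difference was 1.82 on the log2(CPM + 1) scale (SE 0.55). It was not called by limma (adjusted p = 0.194), and the exact two-sided permutation test gave p = 0.1, the smallest that 2 against 3 collections allow.

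Pde6h, the inhibitory subunit of cones (gene ID 78600), differed from Pde6c in its course. Its superior means were 553 CPM at P2 and 3163 CPM at P8, its inferior means 649 and 2844 CPM, and from P21 to 2m they lay between 2362 and 3494 CPM. P8 cells ran from 1207 to 6031 CPM in superior cones (median 3076) and from 1444 to 5535 CPM in inferior cones (median 2669), while P2 cells ran from 0.330 to 1573 CPM (median 523) and from 11.3 to 2314 CPM (median 474). P2 was thus the low collection, and P8 lay inside the range of the later ones. The late minus early difference was 1.14 (SE 0.59; limma adjusted p = 0.398), and the groups overlapped. With a collection left out, the difference ran from 0.846 to 2.80 for Pde6c and from -0.021 to 2.30 for Pde6h. The highest values were those without P8, which left P2 as the only early collection. With P2 and P8 both kept, no alternative called either gene. Over all 10136 genes tested, 0.187% were called (10 higher and 9 lower), and none of the 6 genes was among them. The median of all genes was -0.33, or -0.05 with TMM scaling, which put Pde6c at 2.12 and Pde6h at 1.43.

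The ratio of the mean of Pde6h to that of Pde6c differed between collections. CPM values carry no correction for length, so only the change of this ratio between groups can be read. It was 1.97 and 1.54 at P2, 2.56 and 1.98 at P8, 1.65 and 1.70 at P21, 1.43 and 1.58 at P60, and 0.747 and 0.737 in 2m controls (superior and inferior). The 2m controls thus stood below the other collections in both zones, P60 included. In 2m knockout cones, from the deeper collections too, the ratio was 1.32 and 1.02.

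Cngb3, the modulatory channel subunit of cones (gene ID 30952), was present from P2 on. It was at or above 10 CPM in 281 of 302 control cones (93.0%, 89.6 to 95.6). From P2 to 2m its superior means were 528, 322, 662, 655 and 796 CPM and its inferior means 515, 381, 405, 537 and 812 CPM. The lowest collection was P8, and the 2m controls were the highest. The late minus early difference of 0.55 (SE 0.35) was not called (limma adjusted p = 0.479).

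Cnga3, which forms the pore of the cone channel (gene ID 12790), was split between cells. In P21 superior cones the lowest cell was at 0 CPM, the median at 308 CPM and the highest at 710 CPM. In 2m superior controls these values were 0, 39 and 707 CPM, and in 2m inferior controls 0, 0.598 and 899 CPM. Cells with at least 10 CPM numbered 35 of 56 at P2, 31 of 48 at P8, 30 of 48 at P21, 25 of 47 at P60 and 46 of 103 at 2m (44.7%, 34.9 to 54.8). Among those cells the median ran from 99.4 CPM (2m inferior) to 499 CPM (P21 inferior). Only 3 of 53 superior and 4 of 50 inferior 2m control cones lay between 1 and 10 CPM. With each cell thinned to 800000 reads and at least 8 reads asked for, again 10 CPM, 27 of 53 superior and 19 of 50 inferior 2m controls held Cnga3. These numbers equal those without thinning, which evens out read depth only. Loss of RNA from a cell before sequencing was not tested. The late minus early difference was -0.18 (SE 0.46; limma adjusted p = 0.879), and it was 0.11 with TMM scaling.

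The cones with Cnga3 under 10 CPM mostly held Cngb3. In control cones other than P8, 131 cells had both channel genes at 10 CPM or more, 5 had Cnga3 alone, 106 had Cngb3 alone and 12 had neither. The ratio of the mean of Cngb3 to that of Cnga3 lay between 1.41 and 4.14 from P2 to P60 and was 6.85 and 10.1 in 2m controls (superior and inferior).

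**Figure D1:**
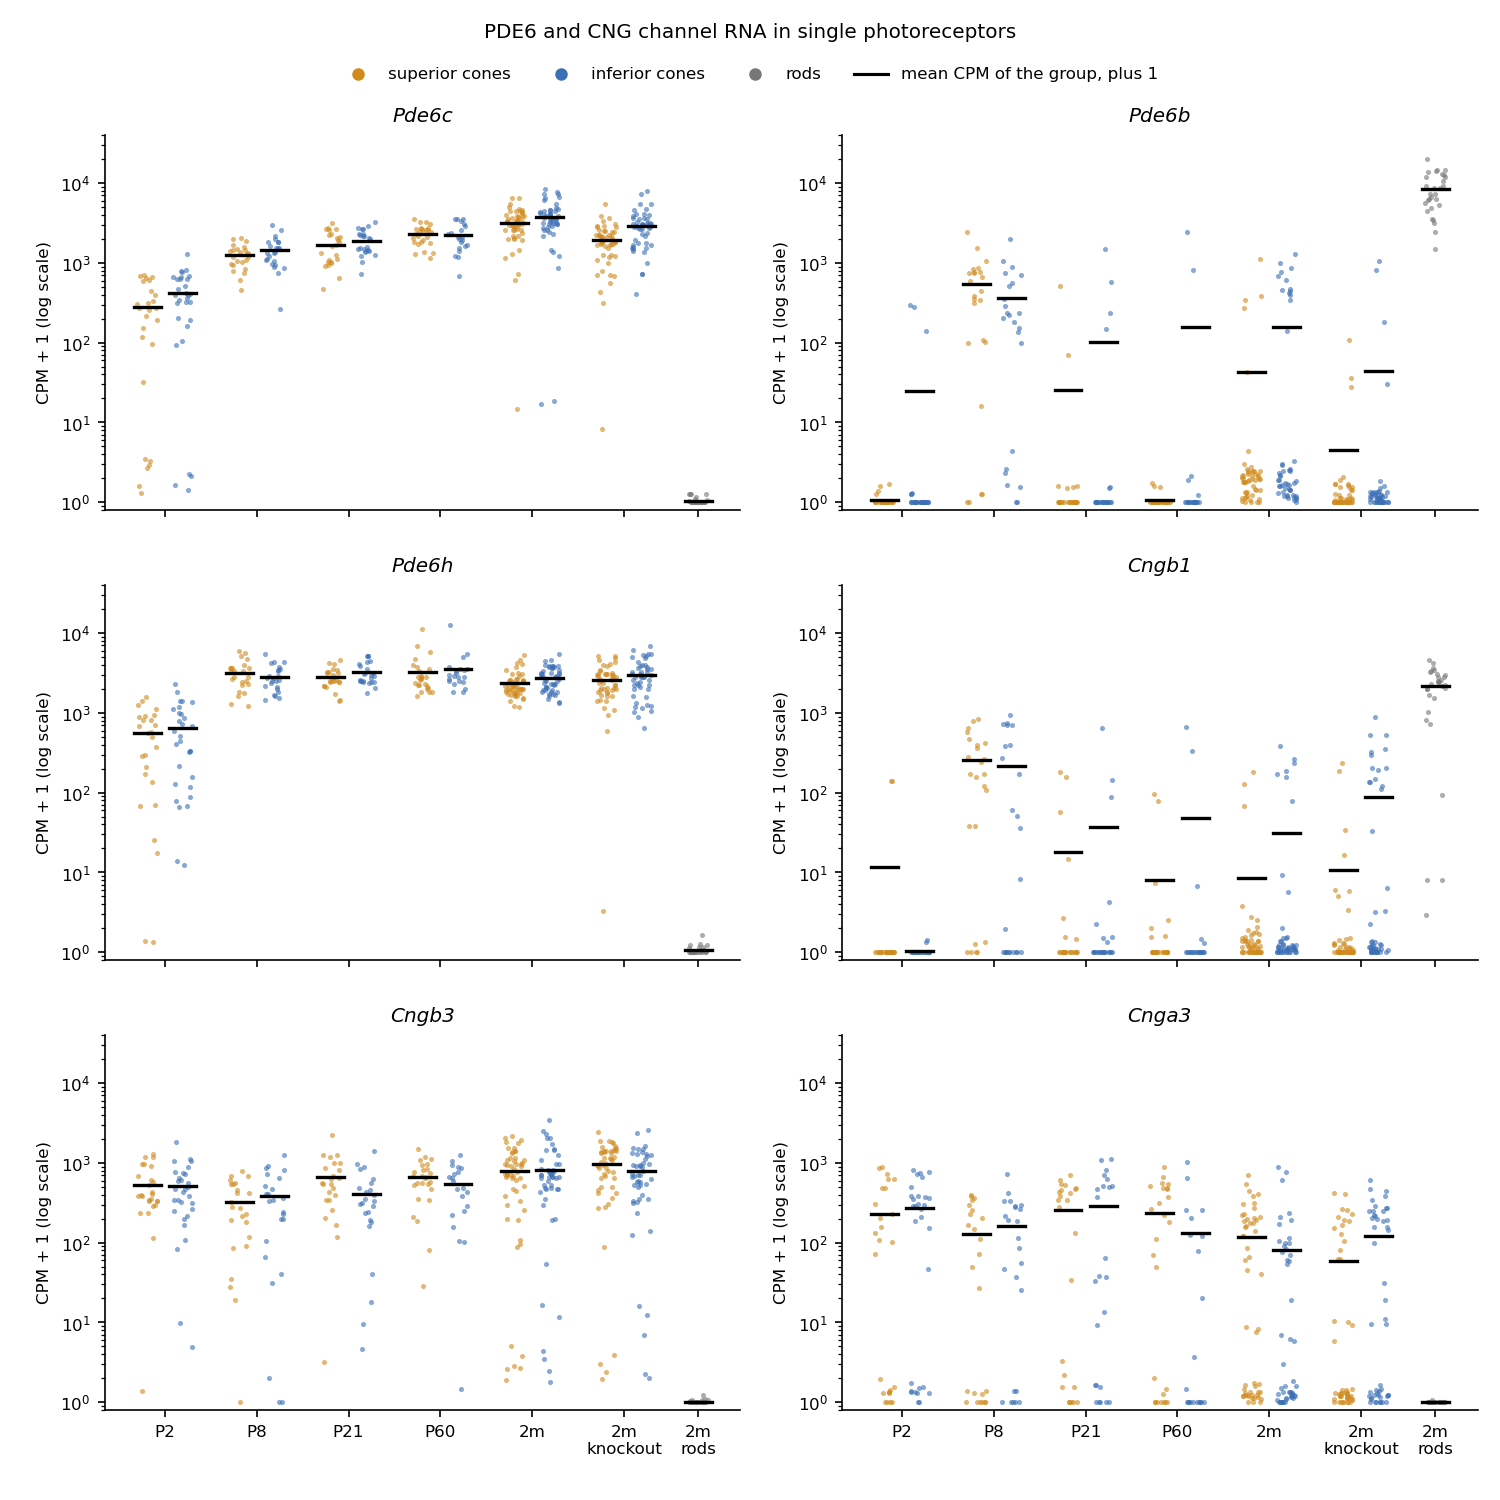
CPM plus 1 of each gene in every cell (points, log axis) by collection, with superior cones in orange, inferior cones in blue and rods in grey; black bars are the group mean plus 1. Pde6c, Pde6h and Cngb3 fill almost every cone after P2, Cnga3 splits the cones into cells near 0 and cells near 100 to 1000 CPM, and Pde6b and Cngb1 are high in rods and in most P8 cones.

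Rods carried the other set of genes. Pde6b, the rod catalytic beta subunit (gene ID 18587), ran from 1482 to 20091 CPM in the 29 rods, with a median of 7355 CPM. Cngb1, the rod channel beta subunit (gene ID 333329), ran from 1.90 to 4645 CPM with a median of 2288 CPM, and 26 of 29 rods were at or above 10 CPM. For each of the 4 cone genes no rod reached 10 CPM, a count of 0 of 29 (0%, 0 to 11.9). Among 530462152 reads of the 29 rods, Pde6c had 26 reads, Pde6h 37, Cngb3 10 and Cnga3 1. Per summed read, superior 2m control cones held 60959 times as much Pde6c as rods (exact Poisson 95% interval 41604 to 93319) and 64867 times as much Cnga3 (11642 to 2562120), intervals that cover counting error only.

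With 1 group of rods the comparison has no test, and a size rule was used: at least 4-fold against 2m control cones of both zones, with a mean of 10 CPM and over 1 CPM in 25% of cells of the higher group. The rule was met in the lower direction by 8.56% of all genes, among them Pde6c (-11.56 against superior and -11.81 against inferior cones, log2 ratio of mean CPM + 1), Pde6h (-11.11 and -11.34), Cngb3 (-9.61 and -9.64) and Cnga3 (-6.87 and -6.35). In the higher direction it was met by 0.597% of genes, among them Pde6b (7.63 and 5.74) and Cngb1 (8.01 and 6.14). The other rod subunits Pde6a (rod catalytic alpha subunit) and Cnga1 (rod channel pore) met it too, at 629 and 587 CPM in rods. Pde6g, the rod inhibitory subunit, did not. It stood at 7510 CPM in rods and between 1987 and 3606 CPM in cones from P8 on (1.92 and 1.77 over superior and inferior 2m controls). Pde6d and Unc119, which bind lipid-modified photoreceptor proteins, and Aipl1, a chaperone of the enzyme, were shared by both cell types, with rod means of 344, 7024 and 1285 CPM and 2m control means of 506 and 638, 2952 and 3250, and 1810 and 1476 CPM. The median of all genes was -0.98 in this comparison and -0.46 with TMM scaling; no gene of the 6 changed its direction between them.

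Both rod genes were found in cones, and mostly at P8. At P8 Pde6b had a mean of 549 CPM in superior cones (0 to 2434 CPM, median 414) and 357 CPM in inferior cones (0 to 1995 CPM, median 210). It was at or above 10 CPM in 37 of 48 P8 cones (77.1%, 62.7 to 88.0), against 3 of 56 at P2, 6 of 48 at P21, 2 of 47 at P60 and 18 of 103 at 2m. Cngb1 had means of 253 CPM (0 to 838 CPM, median 170) and 216 CPM (0 to 932 CPM, median 21.4) at P8, and was at or above 10 CPM in 30 of 48 P8 cones (62.5%, 47.4 to 76.0). At the other ages its superior means lay between 6.98 and 16.9 CPM and its inferior means between 0.0250 and 47.6 CPM, with 2 of 56, 7 of 48, 4 of 47 and 10 of 103 cells at or above 10 CPM. P8 was the highest collection for both genes in both zones, and the late minus early differences were -0.33 for Pde6b (SE 1.48; limma adjusted p = 0.935) and -0.50 for Cngb1 (SE 1.35; limma adjusted p = 0.886). Without P8, which left P2 as the only early collection, they were 2.88 and 2.55. No alternative called either gene.

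Other rod RNA was common in P8 cones as a whole, with Gnat1 at 10 CPM or more in 27 of the 48, Nr2e3 (a rod transcription factor) in 38, Cnga1 in 18 and Pde6a in 10. Of the 37 P8 cones with Pde6b, 24 had Gnat1, 34 had Nr2e3 and 10 had Pde6a, its partner in the rod enzyme. Of the 30 with Cngb1, 23 had Gnat1, 29 had Nr2e3 and 17 had Cnga1, while 13 lacked this channel partner at 10 CPM. Both Pde6b and Cngb1 were at that level in 27 cones. Relative to the rods of the 2m age, P8 superior and inferior cones held 6.46% and 4.21% of the rod mean of Pde6b, 11.7% and 9.97% of Cngb1, 7.82% and 3.43% of Pde6a, 0.802% and 1.10% of Gnat1, and 47.7% and 48.2% of Nr2e3. The rod genes thus stood at unequal shares of their level in adult rods, and P8 rods were not analysed here. In the P8 cones with Gnat1 under 100 CPM (10 superior and 14 inferior cells), Pde6b had means of 383 and 246 CPM and Cngb1 of 184 and 116 CPM. Nr2e3 stood at 655 and 853 CPM in these cells and at 795 and 803 CPM in all P8 cones. A low Gnat1 was thus no mark of cones low in every rod RNA. With cones of Gnat1 under 100 CPM alone, the late minus early differences became -2.70 for Pde6b (limma adjusted p = 0.511) and -2.33 for Cngb1 (limma adjusted p = 0.509). The part of rod RNA carried into these wells was not tested.

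**Figure D2:**
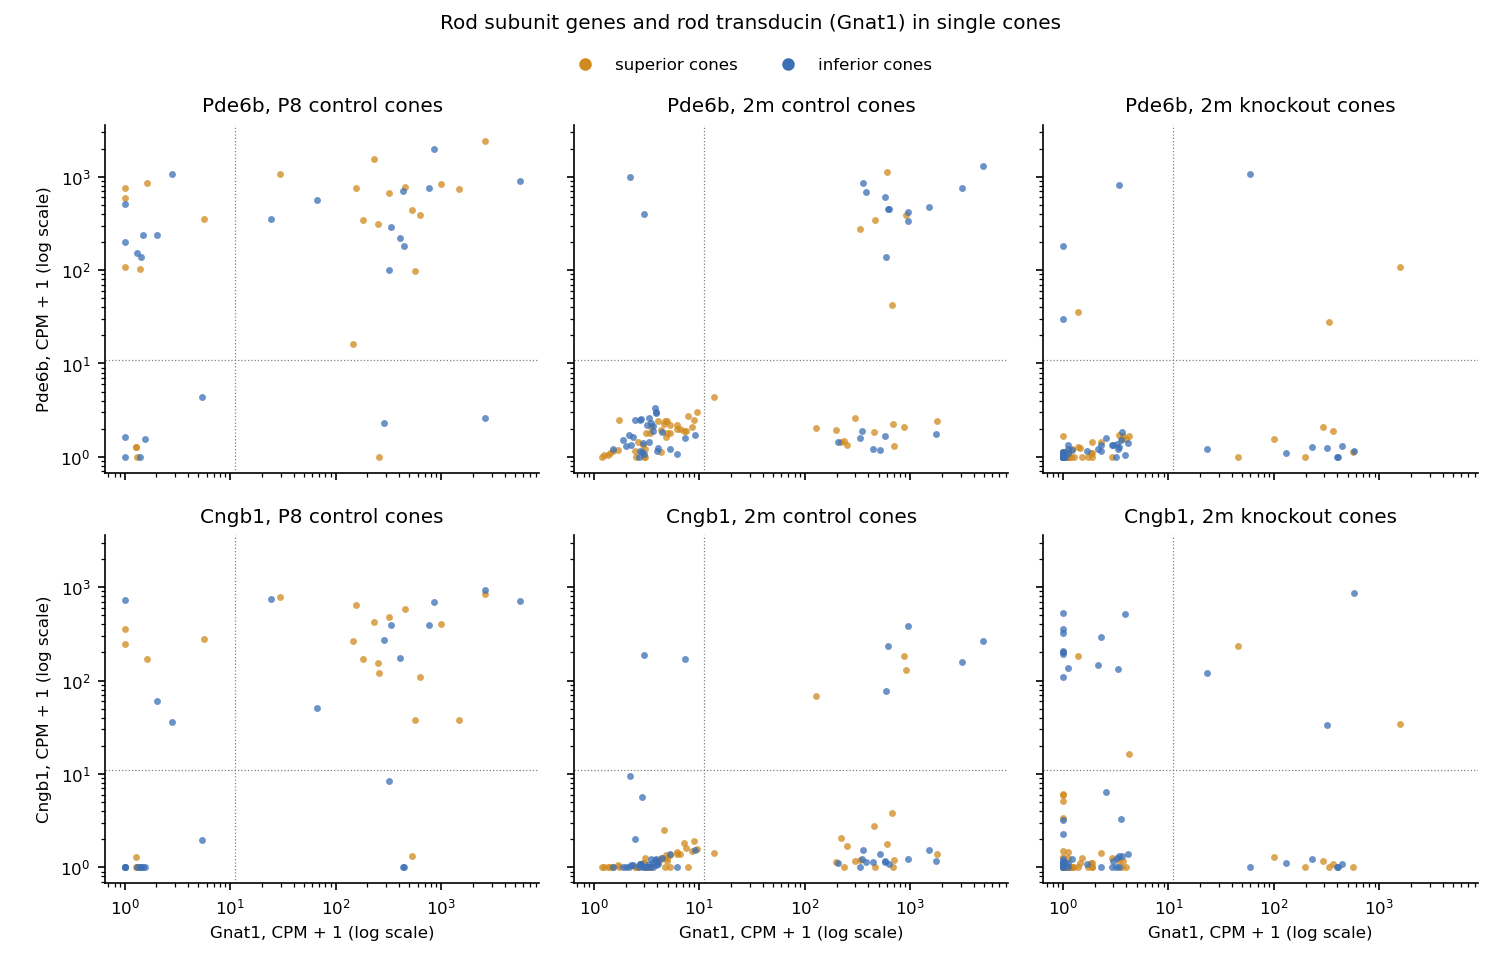
Pde6b (top) and Cngb1 (bottom) against Gnat1, CPM plus 1 on log axes, 1 point per cone (orange superior, blue inferior); dotted lines mark 10 CPM. At P8, 24 of the 37 cones with Pde6b lie at or to the right of the Gnat1 line, as do 27 of all 48 P8 cones. In the knockout, 3 of the 15 inferior cones with Cngb1 lie at or to its right, as do 9 of all 48.

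In the other 254 control cones Gnat1 was at or above 10 CPM in 54 cells. Pde6b was at that level in 29 cells, 21 of them with Gnat1 (38.9% of the cones with Gnat1 and 4% of those without). Cngb1 was at that level in 23 cells, 14 of them with Gnat1 (25.9% and 4.5%).

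Between zones none of the 6 genes passed the test. Superior minus inferior differences were taken within the 5 control collections and tested with limma, with the collection as a block. Over all genes 0.0% were called at an adjusted p of 0.05 (710 genes had an unadjusted p under that value, edgeR on recovered reads called 0 and DESeq2 236). Pde6c was lower in superior cones in 4 of 5 collections, by -0.23 in the mean (SE 0.10, limma adjusted p = 0.708, exact sign-flip p = 0.125). DESeq2 alone called it, at -0.35 (DESeq2 adjusted p = 0.0461, in a range of 0.0461 to 1.0 over all alternatives). Pde6h was lower in 4 of 5 (-0.12, SE 0.09, limma adjusted p = 0.801). Cnga3 was higher in superior cones in 2 of 5 (0.13, SE 0.21) and Cngb3 in 3 of 5 (0.15, SE 0.15). The smallest p that the sign-flip test allows with 5 pairs is 0.063.

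Pde6b had the widest zone difference of the 6. Its superior minus inferior values were -4.53 at P2, 0.62 at P8, -2.01 at P21, -7.18 at P60 and -1.89 at 2m, with a mean of -3.00 (SE 0.93, limma adjusted p = 0.702, exact sign-flip p = 0.125). At P60 no superior cone exceeded 0.751 CPM, while the inferior mean of 154 CPM rested on a cell at 2417 CPM and a cell at 823 CPM, the next cell being at 1.11 CPM. Gnat1 had P60 means of 66.4 CPM (superior) and 1327 CPM (inferior). At P2 Gnat1 was at 0.0168 and 0 CPM, while Nr2e3 had means of 115 and 24.5 CPM (superior and inferior). The P2 inferior mean of Pde6b, 23.8 CPM, rested on 3 of 30 cells, the highest at 300 CPM. At P8 Gnat1 was lower in superior cones (367 against 503 CPM), where Pde6b was higher. With cones of Gnat1 under 100 CPM alone, the zone difference of Pde6b was -1.59 in place of -3.00 (limma adjusted p = 0.813), and that of Cngb1 was 0.80 in place of -0.36 (limma adjusted p = 0.899). The part of rod RNA in this difference was not tested further.

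**Figure D3:**
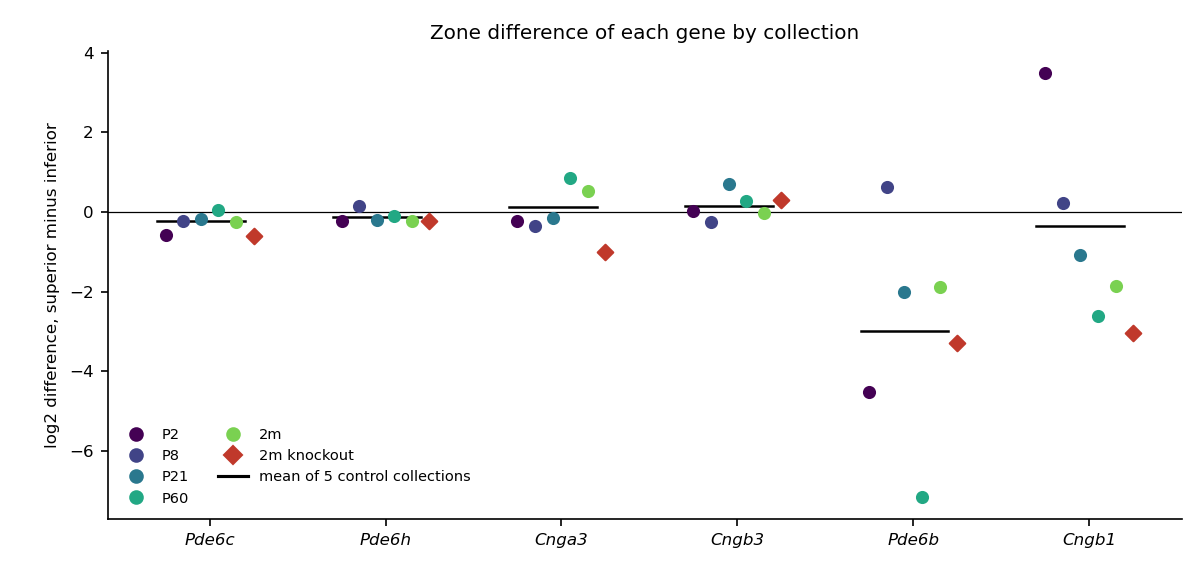
Difference between zones (superior minus inferior, log2 of mean CPM + 1) for each gene, with control collections as circles, the 2m knockout as a red diamond and the mean of the 5 control collections as a black bar. The cone genes stay within about 1 unit of 0, while in control collections Pde6b runs from -7.18 to 0.62 and Cngb1 from -2.61 to 3.51, with the knockout at -3.29 and -3.04. At the ends of the Cngb1 range, 2 of 26 P2 superior cones (3.51) and 2 of 21 P60 inferior cones (-2.61) held 10 CPM or more.

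Knockout cones were compared with 2m controls zone by zone, a single collection on each side, so a size rule of 2-fold in both zones took the place of a test. It was met by 1.05% of all genes in the higher and 1.0% in the lower direction. Against P60 controls it was met by 1.87% and 1.9%, and between the P60 and 2m controls themselves by 2.53% and 2.56%, so controls of nearly the same age differed at least as often as the genotypes. Of the 6 genes Pde6b alone met the rule against 2m controls, and none met it against P60 controls.

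The cone enzyme genes of the knockout lay inside the range of the adult controls, apart from Pde6c in superior cones. Pde6c had a mean of 1941 CPM in superior knockout cones (7.38 to 5418 CPM, median 1873), against 3164 CPM in 2m and 2281 CPM in P60 controls. In inferior knockout cones it was at 2925 CPM (410 to 8014 CPM, median 2849), between 2206 CPM at P60 and 3760 CPM at 2m. The log2 ratios over 2m controls were -0.70 and -0.36 and those over P60 controls -0.23 and 0.41, and P60 over 2m controls gave -0.47 and -0.77. Pde6h was at 2554 and 2991 CPM (0.11 in both zones over 2m and -0.35 and -0.22 over P60 controls). Across the 48 inferior knockout cones the log2 levels of the 2 genes had a Pearson r of -0.54 (Spearman correlation -0.50), where the 10 control groups had r between -0.31 and 0.17. In superior knockout cones r was 0.66 and the Spearman correlation -0.15, with the cell low in cone markers among them. These values run over cells of 1 group each and are a description only.

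Neither channel gene of cones met the size rule in the knockout. Cnga3 was at 58.7 CPM in superior knockout cones, with 15 of 50 cells at 10 CPM or more (30%, 17.9 to 44.6), against 116 CPM and 27 of 53 cells (50.9%, 36.8 to 64.9) in 2m controls. In inferior knockout cones it was at 118 CPM with 24 of 48 cells (50%, 35.2 to 64.8), against 80.6 CPM and 19 of 50 cells (38%, 24.7 to 52.8). The log2 ratios were -0.97 and 0.55 over 2m controls and -1.99 and -0.13 over P60 controls. The intervals of the shares overlapped in both zones, but they cover counting error alone and are no test between genotypes. The difference between zones was not tested. Cngb3 was at 973 and 787 CPM in the knockout (0.29 and -0.04 over 2m controls, 0.57 and 0.55 over P60 controls), with 91 of 98 cells at 10 CPM or more.

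Pde6b was lower in the knockout than in 2m controls, at 3.56 CPM against 41.8 CPM in superior cones and 43.5 against 158 CPM in inferior cones (-3.23 and -1.83). Cells at 10 CPM or more numbered 7 of 98 in the knockout (7.14%, 2.92 to 14.2) and 18 of 103 in 2m controls (17.5%, 10.7 to 26.2). Over 1 CPM the numbers were 8 of 98 and 47 of 103, and Gnat1 was over 1 CPM in 39 of 98 knockout and 94 of 103 2m control cones. P60 controls, at 0.0724 and 154 CPM, had Pde6b over 1 CPM in 3 of 47 cones and Gnat1 in 13 of 47. Against P60 controls the ratios were 2.09 and -1.80, and in cones with Gnat1 under 100 CPM those over 2m controls were 0.09 and 0.19, short of the rule and in the other direction. In such cones the knockout means were 0.943 and 50.9 CPM, against 0.0819 and 0.0739 CPM in P60 controls. The inferior difference from P60 controls turned its direction there. The 2m controls thus stood apart from both other adult groups in the share of cones with low levels of Gnat1 and Pde6b; the part of this in the knockout ratio was not tested.

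Cngb1 went the other way in inferior knockout cones. Its mean was 87 CPM there (0 to 874 CPM, median 0.232), against 29.8 CPM in 2m and 47.6 CPM in P60 inferior controls, and 9.69 CPM in superior knockout cones. It was at or above 10 CPM in 15 of 48 inferior knockout cones (31.3%, 18.7 to 46.3), against 7 of 50 inferior 2m controls (14%, 5.82 to 26.7). These intervals overlap, but they cover counting error alone and are no test between genotypes. Of the 15 cells 3 had Gnat1 at 10 CPM or more, as had 9 of all 48 inferior knockout cones. In 2m inferior controls 5 of the 7 cells with Cngb1 had Gnat1. No inferior knockout cone, with or without Cngb1, exceeded 0.396 CPM of Cnga1 or 0.338 CPM of Nr2e3. Of the 15 cells 1 had Pde6b at 10 CPM or more. The log2 ratios of Cngb1 over 2m controls were 0.34 and 1.51, short of 2-fold in superior cones. In cones with Gnat1 under 100 CPM they were 3.18 and 2.67. The means were 10.3 CPM in the knockout against 0.243 CPM in 2m controls (superior) and 79.8 against 11.7 CPM (inferior). The superior ratio rested on few cells. Of all 50 superior knockout cones 4 were at 10 CPM or more, against 3 of 53 superior 2m controls. The highest superior knockout cells were at 232 and 184 CPM, the median was 0 CPM, and 8 of 50 exceeded 1 CPM.

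**Figure D4:**
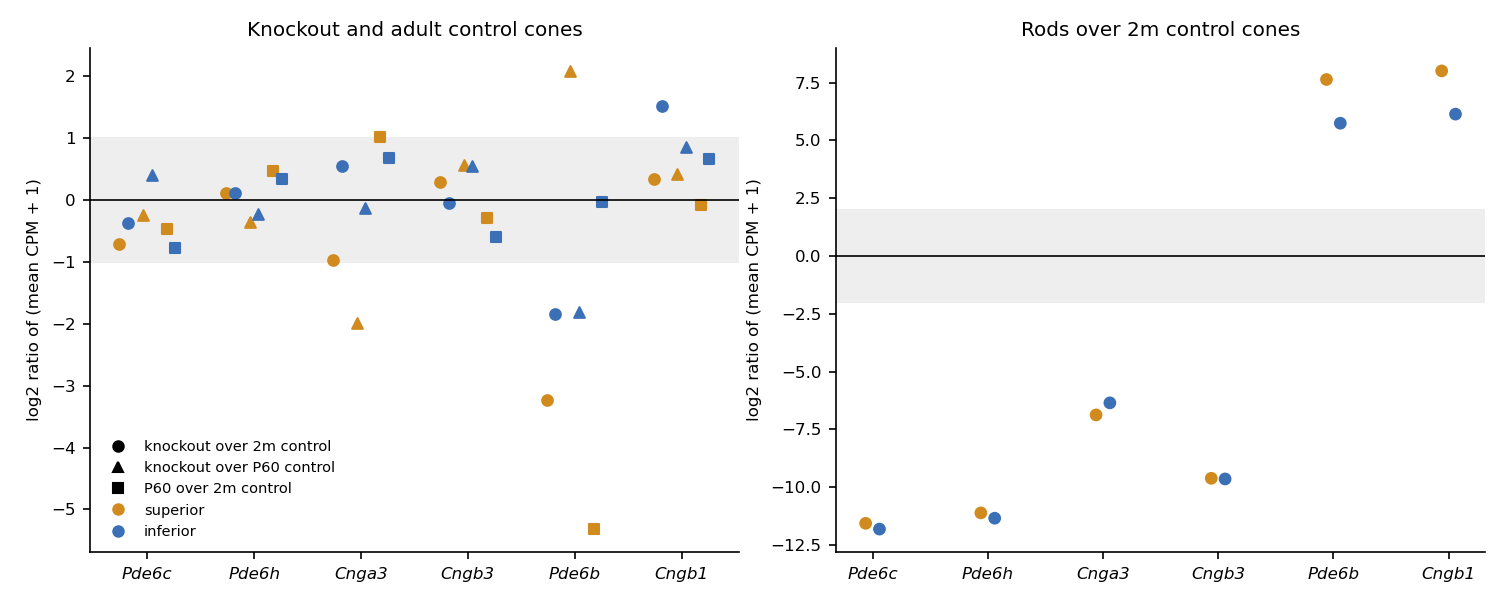
Log2 ratios of (mean CPM + 1) for each gene in superior (orange) and inferior (blue) cells: on the left the knockout over 2m controls, the knockout over P60 controls and P60 over 2m controls, on the right rods over 2m control cones. Grey bands mark less than 2-fold (left) and less than 4-fold (right); on the left Pde6b alone lies beyond the band in both zones for the knockout over 2m controls (-3.23 and -1.83).

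Other genes of the pathway were taken from lists drawn up by function; the rod list holds Pde6a, Pde6g and Cnga1, and the enzyme and channel lists hold the 6 genes themselves. In the zone and the late minus early tests 0 of 8 genes of the enzyme and its partners, 0 of 4 measured channel genes, 0 of 18 further cone genes and 0 of 11 further rod genes were called by limma. In the late minus early comparison 17 of the 18 further cone genes had positive values, with a median of 1.21, and 9 of the 11 further rod genes, with a median of 1.32. The 8 enzyme genes had a median of 0.97 (7 positive) and the 4 channel genes one of -0.34 (1 positive), against -0.33 over all genes. In the knockout over 2m controls the size rule was met by Guca1b (an activator of guanylate cyclase, 2.15 and 3.16), Opn1mw (M opsin, -10.30 and -10.43) and Arr3 (cone arrestin, -1.07 and -1.62) among the further cone genes, and by Slc24a1 (rod exchanger, 2.03 and 1.93) and Gnat1 (rod transducin, -1.26 and -2.76) among the further rod genes. Against P60 controls Opn1mw and Arr3 met it again (-10.39 and -10.11, and -1.06 and -1.55), while Guca1b (1.17 and 0.90), Slc24a1 (4.12 and -0.60) and Gnat1 (0.07 and -4.58) did not, and Pde6a did (-2.80 and -1.75). In rods 8 of the 11 further rod genes met the 4-fold rule in the higher direction and 7 of the 18 further cone genes in the lower direction, among them Gnat2, Gnb3 and Gngt2, the subunits of cone transducin.

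Region positions are given on GRCm38 and gene intervals are those of RefSeq GRCm38.p6, which were held without strand or exons, so a region is placed by the interval alone. A ChAP region lay within 50 kb of 39% of the 10146 genes of the table that were placed, an induced ATAC region within 50 kb of 35.5% and a suppressed ATAC region within 50 kb of 13.1%. Of the 6 genes 4, 3 and 3 had such regions. Pde6b, chosen for its ChAP region, was among each, and its induced region overlaps that ChAP region. These counts are therefore not tested against the shares of all genes. The labels do not say in which genotype induced and suppressed regions are the more open ones, and the lists hold no values per sample.

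Pde6b (chr5:108388373-108431743) had the region it was chosen for, chr5:108422195-108422494, whose p of 2.88e-32 in the authors' deposited table placed it 2 of 4590 regions. It lay inside an induced ATAC region (chr5:108421658-108422641) and overlapped the gene interval of the lncRNA Gm34204 as well. Another ChAP region, chr5:108431072-108431371, ranked 14 of 4590 and lay at the upper end of the gene (p = 9.02e-26 in the authors' deposited table). In all, 28.2% of ChAP regions overlapped an induced and 2.31% a suppressed ATAC region. Pde6b also had 7 suppressed ATAC regions within 50 kb, and 28 of the 10146 genes, itself included, had 7 or more. Of these, 4 lay in the gene interval, from chr5:108388217-108389072 at its lower end to chr5:108397614-108397852, and 3 lay at chr5:108366443-108368755, of which 2 overlapped the lncRNA Gm10419. In superior cones Gm10419 stood at 81.6 CPM in the knockout, 0.0155 CPM in 2m and 0 CPM in P60 controls, in inferior cones at 62.6, 6.81 and 11.5 CPM, and in rods at 0.0132 CPM. It met the size rule in the higher direction over both controls.

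Pde6h (chr6:136952218-136963485) had no ChAP and no suppressed region within 50 kb but 9 induced ATAC regions, of which 4 lay in the gene, the first at chr6:136954311-136955035. Of the 10146 genes 28, Pde6h included, had 9 or more. Pde6c (chr19:38132781-38183955) had ChAP regions at chr19:38131906-38132205, 576 bp below its interval, and at chr19:38134104-38134403 inside it, ranked 615 and 1852 of 4590, and no ATAC region of either list. Cnga3 (chr1:37218241-37263384) had a ChAP region near its lower end (chr1:37218793-37219092, rank 3820) and an induced region inside it (chr1:37230514-37230867). Cngb1 (chr8:95239043-95306585) had a suppressed region across its upper end (chr8:95306414-95306985) and a ChAP region 4035 bp above it (rank 2371). Cngb3 (chr4:19280850-19510623) had a single suppressed region inside it (chr4:19404899-19405188).

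**Figure D5:**
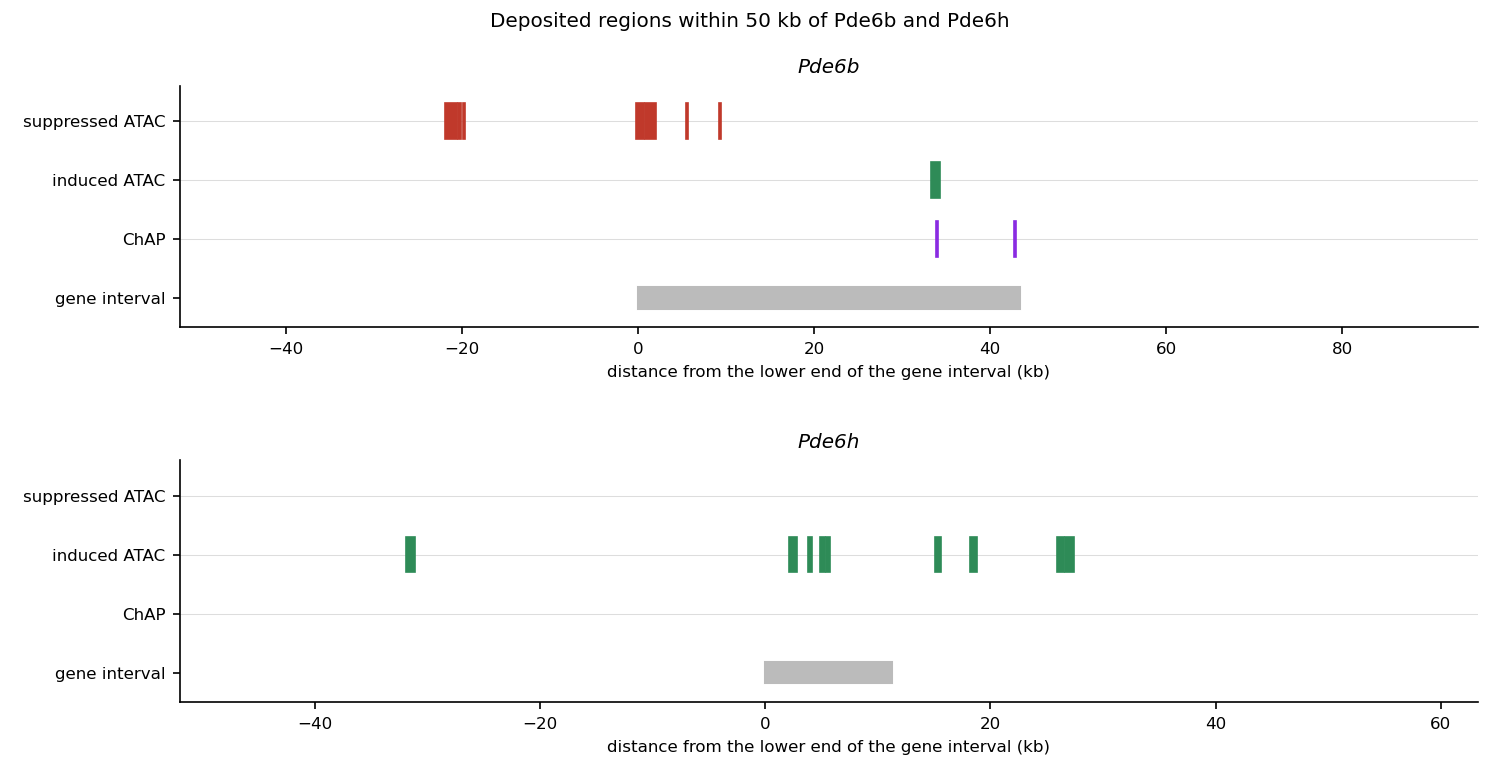
Deposited regions within 50 kb of Pde6b and Pde6h, by distance in kb from the lower end of the gene interval (grey bar), with receptor ChAP regions in purple, induced ATAC regions in green and suppressed ATAC regions in red. Pde6b has 2 ChAP, 1 induced and 7 suppressed regions, and Pde6h 9 induced regions only.

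Across the 13 groups the genes most like each of the 6 in log2(mean CPM + 1) were looked up among 10357 genes. The points share batches and the contrast of rods with cones dominates them, so values over the 12 cone groups are given beside those over 13. Pde6c was most like Gnat2 (Pearson r = 0.99, and 0.93 over cones), Sgip1 (0.99 and 0.90) and Agtpbp1 (0.99 and 0.87). Pde6h was most like Slc24a4 (0.99 and 0.86), Lhfpl3 (0.99 and 0.81) and Gnat2 (0.99 and 0.85). Cnga3 was most like Pcdhac2 (0.98 and 0.84), Mapk4 (0.98 and 0.82) and Fam53c (0.98 and 0.84), and Cngb3 was most like Ccnl1 (0.99 and 0.44), Galnt13 (0.99 and 0.59) and Guf1 (0.98 and 0.75). Pde6b was like Cnga1 (0.87 and 0.78) and Dhrs7 (0.86 and 0.76), and Cngb1 was like Gm11744 (0.86 and 0.78) and Pdia6 (0.86 and 0.82).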

How the data were processed

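The measurements were RNA levels of single mouse cones and rods, which the authors deposited as CPM over the full library depth. Per the submitters' processing notes, bcl2fastq 2, STAR 2.7.3a, MACS2 2.2.7.1 and GRCm38/mm10 were used; the counting tool, annotation, gene filter and the way regions were pooled were not given in the sources used here. Each ChAP region has a p-value in the authors' deposited list, and it served to rank regions only. The ATAC lists hold positions alone.

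The CPM of the kept genes summed to 80.0% to 93.0% of the CPM total of a library. Of the values above 0, 100% lay within 0.1 reads of a whole number of reads, so whole reads were recovered for edgeR 4.0.16 and DESeq2 1.42.0 as alternatives. Depth was 8.98e+05 to 3.26e+07 reads per cell. Libraries 03 and 14 of P60 superior cones (Pearson r 0.996, the next pair 0.395) differed by far less than other pairs (chi-square per degree of freedom 1.90 against at least 156) and were counted as 1 cell, leaving 429 cells.

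Group means were tested as log2(mean CPM + 1) with limma 3.58.1 (R 4.3.3; trend, two-sided, Benjamini-Hochberg over the 10136 genes averaging 5 CPM or more): zones over 5 control collections with the collection as a block, and late against early over the 5 collections. The labels name no animal, so p-values measure the spread between collections only. Knockout and rods had no test. Fits were tested on simulated data. Alternatives with cones of Gnat1 under 100 CPM, with both duplicate libraries and without 2 cells low in cone markers were chosen after seeing the data. Reads had no molecular identifiers. Regions were taken within 50 kb of RefSeq gene intervals. No sequence was used.

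The 6 genes and all gene lists were chosen with earlier results of these data known. Named genes were the 6, Thrb, the other subunits, list members past a test or size rule, and the 3 genes most like each of the 6; Nr2e3, Gm10419 and Gm34204 were added after their values were seen. One gene of this rule is not reported here. Of the marker lists, the 13 measured rod genes summed to 1790 to 22970 CPM in cones and 136976 CPM in rods (Pde6g among them also stood at 1987 CPM or more in cones from P8 on), the cone genes to 13478 CPM or more and 103 CPM, Müller glia genes (8 of 11 measured) to 376 to 1280 CPM and 2934 CPM, bipolar genes (3 of 10) to at most 745 CPM, amacrine genes (3 of 8) to at most 177 CPM, ganglion cell genes (3 of 8) to at most 256 CPM, and horizontal, microglia and endothelial or blood genes (1 each) to at most 33.9, 17.7 and 90.2 CPM. No pigment epithelium marker was in the table.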

Additional observations from a re-analysis of the deposited data

Results flagged for a closer look

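Among 18 sets of 5 control values (superior levels, inferior levels and zone differences of the 6 genes), 3 had a value far from the other 4 by Dixon's criterion. Its usual rate of about 1 set in 20 does not apply here, because the collections differ in age and the sets share collections. Pde6h was low at P2 in both zones: the superior value was 9.11 on the log2(CPM + 1) scale with the nearest other collection at 11.21, and the inferior value 9.34 with the nearest at 11.44. Cngb1 was high at P8 in superior cones, at 7.99 with the nearest other collection at 4.16. Gnat1 (rod transducin) had its highest superior mean at P8 too (367 CPM) but its highest inferior mean at P60 (1327 CPM, against 503 CPM at P8), where Cngb1 was at 47.6 CPM against 216 CPM at P8. In superior P8 cones with Gnat1 under 100 CPM, Cngb1 had a mean of 184 CPM and Nr2e3 one of 655 CPM.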

How the results depend on the processing

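Zone tests called 0 genes, and 16 with log values averaged over cells, 236 with DESeq2 and 2 with no replicate block (unpaired zones, in place of the collection as a block); leaving out each collection gave 0 to 0. The replicate numbers of the labels only name cells and pair nothing. Late minus early called 19 genes (10 higher, 9 lower): 400 with log values averaged (74 and 326), 48 with a pseudocount of 5 (22 and 26), 48 with TMM (33 and 15), 342 with DESeq2 (228 and 114), 3 with edgeR and 0 to 221 with a collection left out (0 without 2m, 1 without P60, 221 without P8). The knockout size rule was met by 213 genes, 391 against P60 controls and 329 with log values averaged; the rod rule by 951, and 1467 with log values averaged. Of the 6 genes 4 had a ChAP region within 10, 50 and 100 kb, 3, 3 and 4 an induced and 3, 3 and 3 a suppressed region. The regions near Pde6b were 2, 2 and 5 (ChAP) and 4, 7 and 7 (suppressed), and those near Pde6h 6, 9 and 9 (induced).

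Some values of the 6 genes turned their direction. In the zone difference these were Cngb1 with log values averaged (0.27) and in cones with Gnat1 under 100 CPM (0.80); with a collection left out, Cnga3 ran from -0.055 to 0.25 and Cngb1 from -1.33 to 0.20. In late minus early, Cnga3 was 0.11 with TMM, 0.15 with edgeR and 0.15 with DESeq2. With a collection left out, Pde6h ran from -0.021 to 2.30, Cnga3 from -0.58 to 0.22, Pde6b from -3.55 to 2.88 and Cngb1 from -3.54 to 2.55. The knockout value of Pde6b, averaged over zones, was 0.14 against P60 controls and 0.14 in cones with Gnat1 under 100 CPM. Where a cause is not in the setting itself, the cause was not tested. Depth limits levels under 10 CPM, which is about 9 reads in the shallowest cell.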
